A study of Homo sapiens with 16 samples.

Results

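Collagens and laminins are the chains from which basement membranes and much of the extracellular matrix are built, and this account covers genes of the series whose symbol has the form of a collagen alpha chain (COL, a number, A, a number) or of a laminin alpha, beta or gamma chain (LAMA, LAMB or LAMC and a number). The rule used the symbols alone, and 62 of the 63677 gene identifiers in the count table are described here, which carry 55 distinct symbols: 44 collagens and 11 laminins. COL11A2 has 7 identifiers, 6 of them without a read, and LAMA4 has 2. RNA was sequenced in 16 libraries from SW480 and SW620, established human colon carcinoma lines that were derived from a primary tumour and from a lymph node metastasis of the same patient. Each line was profiled untransduced (parental), carrying an empty vector, or carrying ERB, the estrogen receptor beta encoded by ESR2. SW620 cells with ERB were also profiled after 24 h in DMSO, the vehicle, and after 24 h in 10 nM estradiol. There were 8 groups of 2 libraries, I and II, and all cells grew in DMEM with serum. The labels do not say whether the libraries of a group came from separate cultures or clones, so p-values measure only the spread between these libraries.

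Collagen chains fold in threes into a triple helix, and a cell that lacks a partner chain cannot make the corresponding heterotrimer. Collagen IV forms the network of basement membranes, collagens I, II, III, V and XI form fibrils, and collagen VI forms beaded filaments. Laminins are heterotrimers of 1 alpha, 1 beta and 1 gamma chain. Laminin-511, common in epithelial basement membranes, joins LAMA5, LAMB1 and LAMC1, and LAMA3 and LAMB3 are chains of laminin that anchors epithelial cells. In the colon, epithelial cells make part of the basement membrane they rest on, while fibroblasts of the stroma make most of the fibrillar collagen.

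Total reads per library ran from 12743940 to 18948283, and the members took 377 to 1241 CPM, that is, reads scaled to library size by the trimmed mean of M values (TMM). ESR2 had 100 to 187 reads in each of the 8 libraries labelled ERB and 0 to 4 in each of the other 8. The libraries labelled SW480 with empty vector or with ERB stood apart from parental SW480. In the median over 298 other genes that were high in parental SW480, the SW620 libraries sat at 1.41 to 2.02% of the parental SW480 level, the libraries labelled SW480 with empty vector at 2.20 and 2.1%, and those labelled SW480 with ERB at 17.1 and 21.0%. In the median over 35 genes that were high in parental SW620, parental SW480 sat at 4.58 and 5.59% of the parental SW620 level, the SW480 empty vector libraries at 28.8 and 66.2%, and the SW480 ERB libraries at 54.4 and 48.3%. Both sets were chosen as far apart between the parental lines, so the low values of the other parental line follow from that choice. The transduced libraries took no part in it. The empty vector libraries, and in part the ERB libraries, thus go against the label SW480 in these genes; whether they were mislabelled or mixed with SW620 cells was not tested, and every value below for a transduced SW480 library is that of the library labelled so. Libraries also differed in the shift between GC-rich and GC-poor genes (the median log2 deviation of the highest GC quartile minus that of the lowest), from −2.20 to 2.75. A group could hold both signs: the SW480 empty vector libraries stood at −0.75 and 2.43.

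Of the 55 symbols, 38 were detected with 10 or more reads over all libraries, 28 collagens and 10 laminins. A further 11 had 1 to 9 reads, and 6 had none: COL3A1, COL4A6, COL6A6, COL19A1, COL25A1 and LAMA4. The members had 169726 reads in all, and the 7 most read, COL18A1, LAMB3, LAMA5, LAMC1, LAMB2, LAMB1 and COL4A2, held 85.6% of them. In all, 14 members had 1000 or more reads. The laminin beta chains had 62927 reads, the alpha chains 23742 and the gamma chains LAMC1 and LAMC3 together 19229. Among collagens, COL18A1, the source of endostatin, had 35076 reads, collagen IV 8432 and the 11 fibrillar genes 2937 together.

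**Figure D1:**
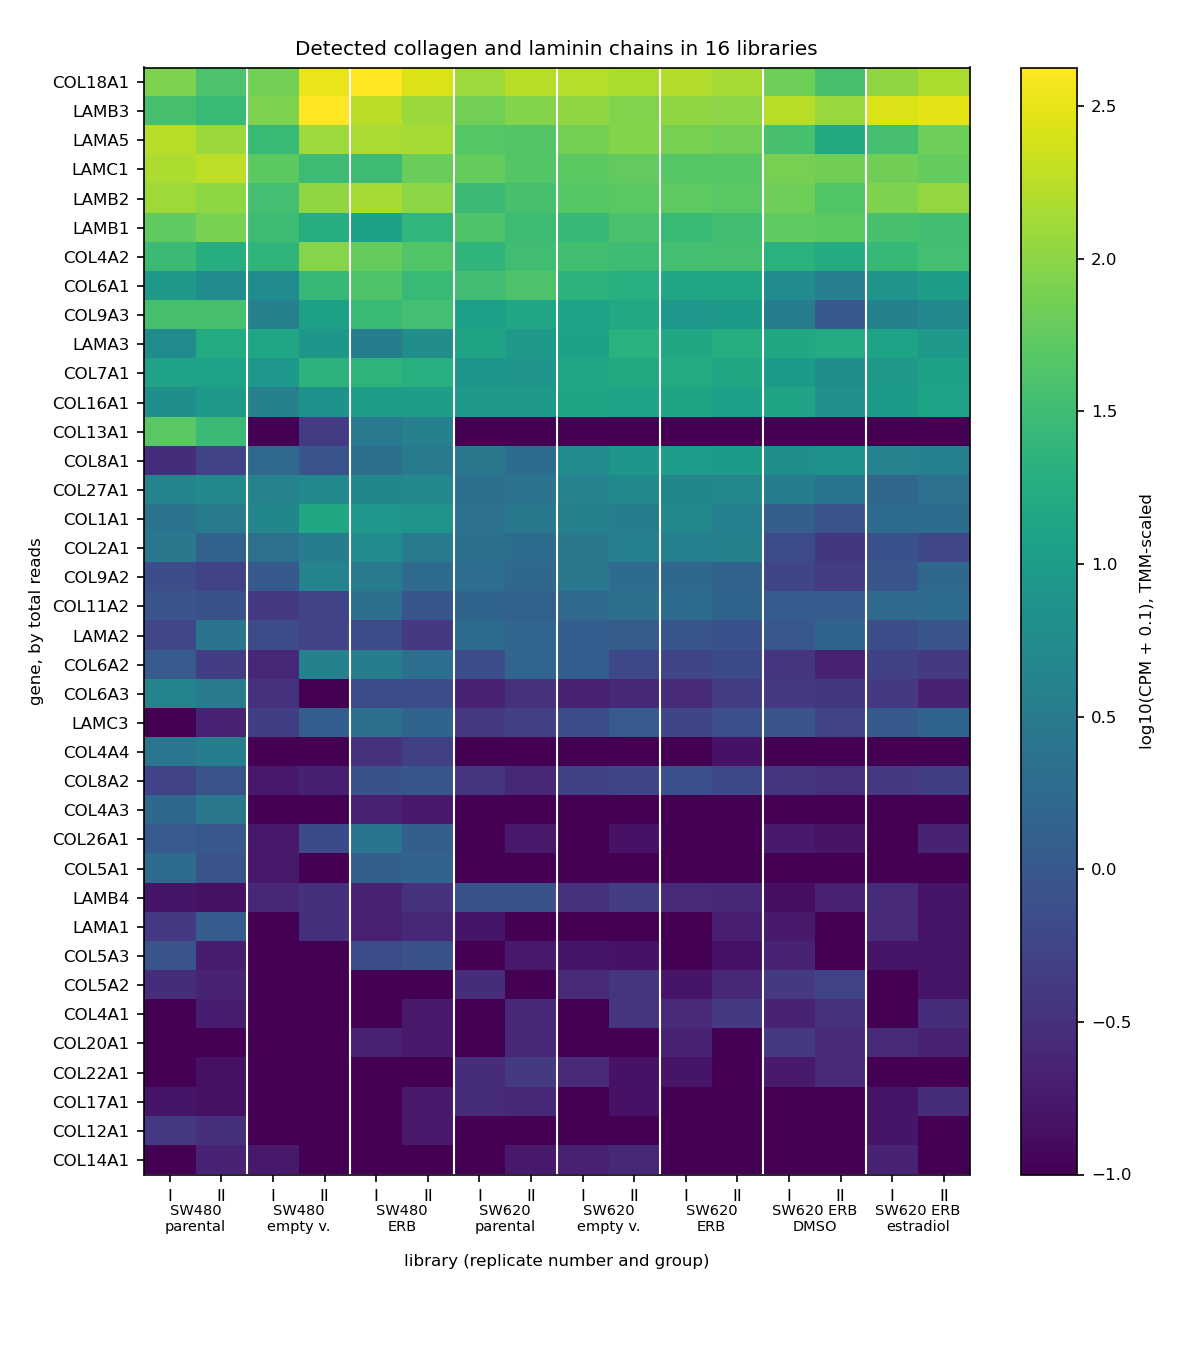
Rows are the 38 detected members ordered by total reads and columns are the 16 libraries in their groups; the colour is log10(CPM + 0.1), TMM-scaled, and is to be read along a row, since CPM does not account for transcript length. The COL13A1, COL4A3 and COL4A4 rows are each brightest in parental SW480, and COL13A1 is dark in all 10 SW620 libraries.

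COL1A1 was read without the chain it pairs with in tissue. COL1A1, a chain of collagen I, had 923 reads, while its partner COL1A2 had 3 and COL3A1 had 0. Fibroblast markers were near absent: DCN had 2 reads, PDGFRA 3, and FAP and POSTN 0 over the 16 libraries, and the summed level of the 7 fibroblast markers was 1.48 to 7.81 CPM. LUM (610 reads), PDGFRB (665) and THY1 (81) made up nearly all of it. PECAM1 and CLDN5 of endothelium had 0 reads and PTPRC of leukocytes had 1, with summed marker levels of 0.711 to 6.04 and 0.611 to 4.62 CPM. The 7 smooth muscle markers summed to 6.93 to 95.1 CPM, mostly TAGLN. Colon epithelial markers summed to 2941 to 30721 CPM, but KRT20 had 40 reads and CDX1 had 0.

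COL4A1 and COL4A2 encode the chains of the common collagen IV network and are transcribed in opposite directions from neighbouring starts, as are COL4A3 and COL4A4, whose chains are best known from kidney basement membrane. The stretches between the starts are shown because the members of 1 pair appeared in the same libraries and those of the other did not. They come from RefSeq (GRCh38.p14), plus strand: chr13:110307158-110307283, 126 bases with 80.2% GC, and chr2:227164489-227164623, 135 bases with 68.1% GC. Capitals mark matches to GGGCGG on either strand (CCGCCC on the other strand) and to CCAAT.
COL4A1-COL4A2 interval: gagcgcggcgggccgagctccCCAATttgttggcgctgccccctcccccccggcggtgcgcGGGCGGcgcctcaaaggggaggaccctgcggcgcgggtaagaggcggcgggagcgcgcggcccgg
COL4A4-COL4A3 interval: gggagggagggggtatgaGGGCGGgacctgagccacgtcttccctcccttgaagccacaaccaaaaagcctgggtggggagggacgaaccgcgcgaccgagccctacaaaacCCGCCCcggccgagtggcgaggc
The first holds 1 GGGCGG and 1 CCAAT, and the second holds 2 GGGCGG and no CCAAT; neither holds TATAAA or TGANTCA, searched on both strands. GGGCGG was found in 34.6% and CCAAT in 21.1% of all 35116 RefSeq starts with a stretch of 126 bases before them, and GGGCGG in 35.6% at 135 bases. TATAAA was found in 5.87% and TGANTCA in 3.5% at 126 bases. Promoter entries were matched for 41 of the 55 member symbols.

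COL4A2 was read in every library, with 291 to 845 reads, whereas COL4A1 had 0 to 6 reads per library and 29 in all. In FPKM, the deposited unit that accounts for transcript length, COL4A2 averaged 12.5 to 21.6 over the groups and COL4A1 at most 0.106. The antisense genes COL4A2-AS1 and COL4A2-AS2 had 63 and 426 reads. The labels do not say whether counting used strand, so reads of COL4A2 and of these partners cannot be told apart. COL4A3 and COL4A4 went together: parental SW480 had 25 and 60 reads of COL4A3 and 41 and 74 of COL4A4. The SW480 ERB libraries had 1 and 1 of COL4A3 and 2 and 5 of COL4A4. The SW480 empty vector libraries had none of either, and the 10 SW620 libraries had 1 COL4A4 read between them. COL4A5 had 6 reads in all.

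Levels of different chains are given in FPKM as deposited, which accounts for transcript length. In parental SW480 the highest were LAMB2 at 91.1 ± 2.81 (SD, n = 2 libraries, as for all values below), LAMA5 at 72.0 ± 6.46 and LAMC1 at 66.7 ± 19, and LAMB3 stood at 9.21 ± 0.0741. In parental SW620 COL18A1 was highest at 36.8 ± 3.07, followed by LAMB2 at 28.1 ± 6.14, LAMA5 at 19.5 ± 1.82, LAMC1 at 19.2 ± 6.09 and LAMB3 at 17.5 ± 0.212. In parental SW480 the libraries of LAMA5 and LAMC1 overlapped in FPKM and LAMB2 stood above both. In parental SW620 each of LAMA5, LAMC1 and LAMB3 overlapped its neighbour in this order, while COL18A1 and LAMB2 stood above them without overlap in FPKM. The counts do not bear out this place of LAMB2. In parental SW620 it had 476 and 483 reads (transcript of 5674 bases). LAMB3 had 1147 and 1143 reads (4305 bases), and LAMC1 had 940 and 586 (7889 bases). In all, 18 members reached 1 FPKM in the mean of at least 1 group.

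The proportions of the laminin chains differed between libraries. The ratio of LAMB2 to LAMB3 FPKM was 10.1 and 9.74 in parental SW480 and between 0.939 and 2.47 in every other library. In those other libraries LAMB3 had more reads than LAMB2, although its transcript is shorter (4305 against 5674 bases). In parental SW620 these were 1147 and 1143 against 476 and 483 reads. Counts and FPKM thus order these 2 chains differently in most libraries, and the reason was not tested. LAMA3 averaged 0.946 to 5.64 FPKM over the groups, below LAMB3 in every library. The ratio of LAMB3 to LAMA3 FPKM ran from 1.63 in a parental SW480 library to 29.7 in an estradiol library. The tests below rest on counts.

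**Figure D2:**
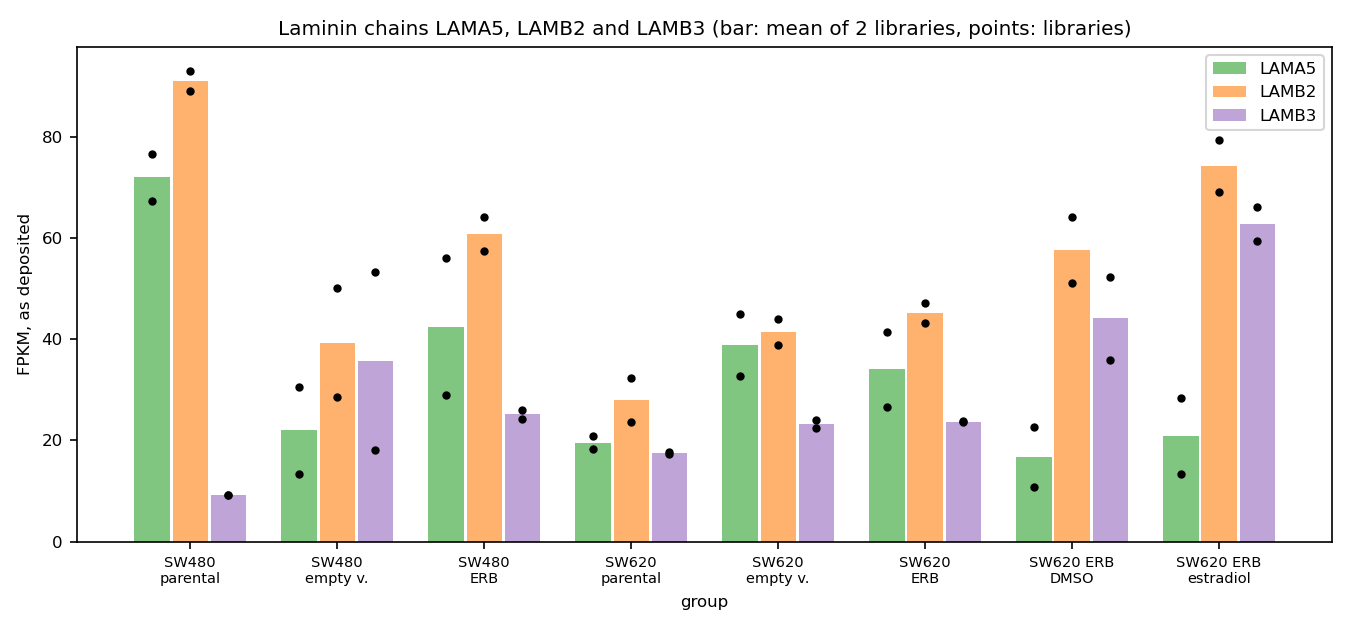
FPKM as deposited (vertical axis) of LAMA5, LAMB2 and LAMB3 in the 8 groups; bars are means of 2 libraries and points are libraries. LAMB2 lies far above LAMB3 in parental SW480 (93.1 and 89.1 against 9.26 and 9.16 FPKM), and LAMB3 reaches 59.4 and 66.1 FPKM with estradiol.

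The first comparison asks how the matrix genes differ between the untreated parental lines. LAMC1, the widespread laminin gamma chain, was 153 and 184 CPM in parental SW480 and 58.3 and 45.6 CPM in parental SW620. It fell by 1.70 on the log2 scale from SW480 to SW620 (SE 0.36, adjusted p = 0.00655; edgeR quasi-likelihood test, Benjamini-Hochberg over 17464 genes, as for all adjusted p below). LAMB2, a beta chain that takes the place of LAMB1 in other laminins, was 131 and 102 CPM against 29.5 and 37.6 CPM, a log2 change of −1.79 (adjusted p = 0.0158). Both laminins were thus lower in both SW620 libraries than in either SW480 library.

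Of 28 members tested (20 collagens and 8 laminins; the other 10 detected were too lowly read), 2 were higher (6.84% of all genes tested were) and 8 lower (11.2% were), together 35.7% of the members against 18% of all genes. COL13A1, COL4A3, COL4A4, COL5A1, COL26A1 and COL6A3 had at most 7 reads in any SW620 library. They passed the read filter through SW480 libraries, so between the parental lines only a lower call was open to them. The filter was the same for all genes, and the share of members called is to be read with this limit. The libraries of the lines did not overlap for 21 of the 28, against 54.4% of all genes. The median log2 change was −0.36 over the members, the same with members at 0 reads put at their bound, and −0.05 over all genes. COL13A1, a transmembrane collagen of cell adhesion sites, had 805 and 676 reads in parental SW480 and 0 in both parental SW620 libraries. It was at least 366-fold lower in SW620, with 3 reads over the group as the floor (adjusted p = 0.000776). COL4A4 was at least 28.4-fold, COL4A3 at least 21.0-fold and COL5A1, a fibrillar collagen that nucleates fibrils, at least 11.4-fold lower, all with 0 reads in parental SW620. COL26A1 had 36 reads in SW480 against 1, a ratio of 26.7 with a counting interval of 4.49 to 1082 (adjusted p = 0.0234). COL6A3, the large chain of collagen VI, was 4.08 and 2.88 CPM in SW480 and 0.124 and 0.234 CPM in SW620, a log2 change of −4.26 (adjusted p = 0.000716, the smallest of the members).

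The members that were higher in SW620 were COL6A1 and COL8A1. COL6A1 was 8.77 and 5.76 CPM in SW480 and 32.2 and 41.5 CPM in SW620, a log2 change of 2.34 (SE 0.58, adjusted p = 0.015). The collagen VI chains COL6A1 and COL6A3 changed in opposite directions, and COL6A2 was 0.988 and 0.349 CPM in SW480 and 0.620 and 1.40 CPM in SW620, overlapping (0.61, adjusted p = 0.695). COL8A1, a short chain collagen of hexagonal networks, was 0.185 and 0.436 CPM in SW480 and 2.67 and 1.79 CPM in SW620, a log2 change of 2.77 (adjusted p = 0.00268). LAMB3 averaged 32.9 ± 5.76 against 80.1 ± 12.6 CPM (1.28, adjusted p = 0.126), and LAMA5, the alpha chain of laminin-511, 148 ± 37.8 against 45.7 ± 0.437 CPM (−1.70, adjusted p = 0.0618). LAMB1 was 67.1 ± 16.1 against 36.6 ± 8.39 CPM and COL9A3, a fibril-associated collagen, 36.9 ± 0.217 against 12.2 ± 1.86 CPM, neither past the test. COL4A2 (0.23), COL7A1 (−0.63), COL16A1 (0.21) and LAMA3 (0.00) did not pass either. Without the 4 transduced SW480 libraries in the fit, 19 members were called, 6 higher and 13 lower, including all 10, against 31.9% of all genes; LAMB3, LAMA5, COL9A3, LAMB1 and COL18A1 were then among them. DESeq2 did not call COL13A1 (adjusted p = 0.148), and without parental SW620 II 6 members were called, against 8.03% of all genes: LAMC1 (adjusted p = 0.0804), COL6A1 (0.0877), LAMB2 (0.0803) and COL26A1 (0.0723) then lost their call, as LAMB2 (0.1) and COL26A1 (0.134) did without SW620 I, COL6A1 (0.127) and COL26A1 (0.0623) without SW480 II, and LAMB2 (0.0502) without SW480 I.

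**Figure D3:**
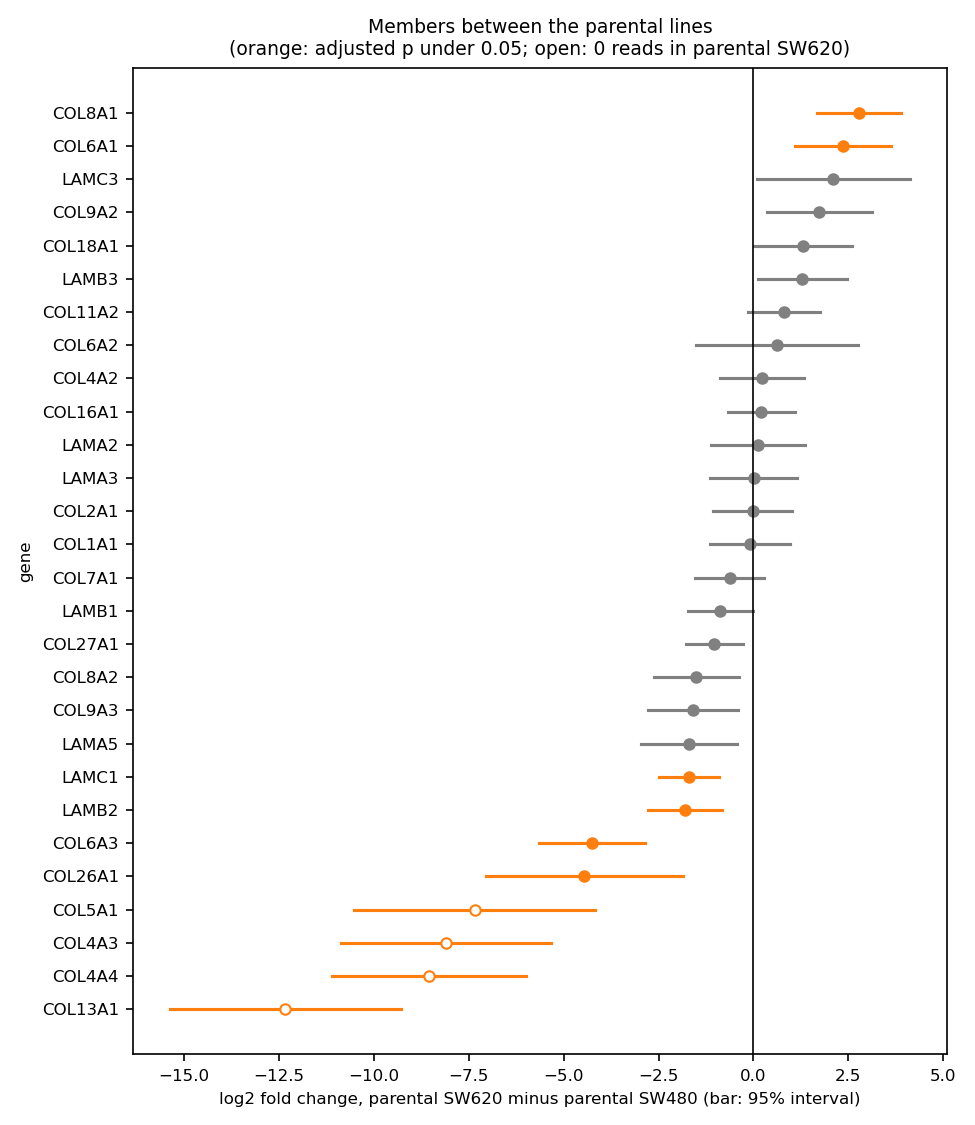
Log2 fold change of the 28 tested members between parental SW620 and parental SW480 (horizontal axis), with bars of the 95% interval; orange marks an adjusted p under 0.05 and open points have 0 reads in parental SW620, where the fitted value depends on the prior count and is no estimate of size. The 8 members that were lower include LAMC1 and LAMB2, and the 2 that were higher are COL6A1 and COL8A1.

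The lists of genes that act on these chains held calls in both directions, except for the proteases. Of 29 tested collagen processing genes, 2 were higher and 9 lower, with a median log2 change of −0.26. The lysyl oxidase LOXL2, which cross-links collagen, averaged 29.4 ± 9.05 CPM in SW480 and 1.40 ± 0.224 in SW620 (−4.39). P4HA2, a prolyl hydroxylase, fell by 2.55 on the log2 scale, and COLGALT2, a collagen galactosyltransferase, rose by 1.83. Of 16 tested proteases and inhibitors, 8 were lower and none higher (median −1.53), among them the membrane collagenase MMP14 (65.0 ± 18.0 against 2.18 ± 0.886 CPM, −4.90), TIMP2 (−2.02) and TIMP3 (−2.38). Of 14 receptors, 1 was higher and 3 lower: ITGA3, the integrin alpha chain that binds laminin, was 493 ± 264 against 11 ± 3.33 CPM (−5.48), ITGA1, which binds collagen, was 231 ± 225 against 0.970 ± 0.821 CPM (−7.85), and GPR56, a receptor for collagen III, rose by 2.50. Of 11 basement membrane partners, 2 were higher and 2 lower, with SMOC2 higher by 2.06 and FREM2 and SPARC at 0 CPM in parental SW620 against 3.80 ± 2.58 and 2.33 ± 0.458 CPM. ACTA2 of the smooth muscle markers (0.311 ± 0.000988 against 16 ± 3.78 CPM) and ESAM of the endothelial markers were also lower, and of 10 epithelial markers 3 were higher and 1 lower; their part in the result was not tested.

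The next comparisons follow transduction in cells labelled SW480. Against parental SW480, the libraries labelled SW480 with empty vector had 6 members higher and 9 lower of 28, against 14.9% and 16% of all genes, or 30.9% in all. Libraries did not overlap for 16 of the 28, against 49.5% of all genes. COL13A1 had 0 and 3 reads, a ratio to parental of 281 with a counting interval of 96.1 to 1366. COL4A4 was at least 21.9-fold and COL4A3 at least 16.2-fold lower, and COL6A3 had 3 reads against 132 (ratio 25.1, interval 8.40 to 123) and COL5A1 1 against 46 (ratio 26.2, interval 4.48 to 1058). LAMC1 averaged 41.3 ± 14.9 CPM (−2.03), LAMB1 24.5 ± 9.08 CPM (−1.45), COL9A3 7.67 ± 5.53 CPM (−2.28), and COL8A2 had 2 reads against 24 (ratio 6.84, interval 1.70 to 59.7). COL4A3, COL4A4 and COL6A3 had at most 8 reads in any library outside parental SW480. They passed the read filter through parental SW480, so against it only a lower call was open to them. DESeq2 did not call COL13A1 (adjusted p = 0.269) or COL8A2 (0.0523).

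The members that were higher in the empty vector libraries had unlike values in libraries I and II. LAMB3 was 85.3 and 423 CPM against 37.0 and 28.8 in parental cells, a log2 change of 2.95 (SE 0.57, adjusted p = 0.00329). COL18A1 was 71.1 and 334 CPM against 80.3 and 40.8, so that the libraries overlapped although it passed the test (1.74, adjusted p = 0.0451). COL1A1 was 4.58 and 14.9 CPM (1.84), COL9A2 0.977 and 4.12 (2.24), COL8A1 1.65 and 0.779 (1.92), and LAMC3, a laminin gamma chain, had 15 reads against 3 (ratio 8.77, interval 2.48 to 47.3). LAMC3 passed the read filter through libraries other than parental SW480, so against it only a higher call was open. Over the 23 members read in both empty vector libraries, the log2 ratio of II to I correlated with transcript GC content (Pearson r = 0.79, Spearman rho = 0.67, a description across genes that share these libraries). Its median was −0.75 over the 5 members under 55% GC and 1.66 over the 18 with more. In the other groups the same correlation between libraries II and I ran from −0.78 (SW620 with ERB in DMSO) to 0.47 (SW620 with ERB in estradiol). It was −0.67 in parental SW480. In a fit of the 6 SW480 libraries alone, 4 of 27 members were called, all lower (COL4A3, COL4A4, COL6A3 and COL13A1), against 4.39% of all genes. Without SW480 empty vector II, COL18A1 (0.21, adjusted p = 0.795), COL1A1 (0.75, 0.179), COL9A2 (0.88, 0.34), LAMC3 (0.172), LAMB1 (0.107) and COL5A1 (0.0729) lost their call, and COL8A1 (1.25, 0.12) lost it without library I. Without parental SW480 II, COL18A1 (0.28), COL1A1 (0.0688), COL9A2 (0.159), LAMB1 (0.125) and COL8A2 (0.137) lost it, and without parental SW480 I COL1A1 (0.0528), COL8A1 (0.0654) and LAMC3 (0.0551) did. With GC and length offsets all 15 were called, COL18A1 at 1.14, COL9A2 at 1.43 and LAMB1 at −0.95. COL16A1 (−0.82), LAMA5 (−1.47), COL26A1 (−2.38) and LAMB2 (−1.08) were then called lower as well, and COL4A2 (0.84) higher. Over all genes, 4765 were then higher and 2924 lower, against 2604 and 2795 without the offsets.

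Against parental SW480, the libraries labelled SW480 with ERB had 7 members higher and 6 lower of 28 (46.4%), against 19.5% and 24.9% of all genes, or 44.4% in all, a share near that of the members. Libraries did not overlap for 21, against 74.3% of all genes. COL18A1 was 417 and 264 CPM against 80.3 and 40.8 (log2 change 2.49, SE 0.62, adjusted p = 0.0116). LAMB3 was 181 and 122 CPM (2.20), COL6A1 41.9 and 28.4 CPM (2.27), and COL8A1 2.05 and 3.06 CPM (2.97, adjusted p = 0.00311). COL1A1 (1.55), COL9A2 (2.18) and LAMC3 (36 reads against 3, ratio 21.5, interval 6.78 to 109) were higher too. For LAMC3 only a higher call was open, since parental SW480 had 0 and 3 reads of it. Lower were LAMC1 at 30.6 and 64.0 CPM (−1.83), LAMB1 at 12 and 24.7 (−1.87), COL6A3 (−2.53), COL13A1 at 3.08 and 3.67 CPM (−3.55), COL4A4 (−3.16) and COL4A3 (2 reads against 85, ratio 23.8, interval 6.38 to 199). For COL4A3, COL4A4 and COL6A3 only a lower call was open here too, since they passed the read filter through parental SW480. The share of members called is to be read with this limit. DESeq2 did not call COL13A1 (adjusted p = 0.609) or COL4A3 (0.146). Over the 27 members read in all 4 libraries, the log2 change correlated with transcript GC content (Pearson r = 0.58, Spearman rho = 0.48), with medians of −1.85 over the 8 members under 55% GC and 0.90 over the 19 above. With GC and length offsets COL9A2 was not called (0.84, adjusted p = 0.0944), and COL1A1 (0.84), COL6A1 (1.23) and COL18A1 (1.48) were smaller. COL9A3 (−1.67), LAMA5 (−0.84) and LAMB2 (−0.64) were then called lower as well. Over all genes, 3747 were then higher and 3104 lower. None was called in the fit of the 6 SW480 libraries, where 0% of all genes were. Without SW480 ERB I the count was 2, COL8A1 and LAMC3, against 4.84% of all genes, and without parental SW480 II it was 5, against 8.19%.

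Between the libraries labelled SW480 with ERB and with empty vector, edgeR called 0 members, against 1.1% of all genes. All 192 of those genes were higher with ERB. The 2 groups also differed in the genes high in parental SW480 (17.1 and 21.0% against 2.20 and 2.1% of the parental level). That difference and the receptor cannot be told apart here. Unadjusted p was under 0.05 for 11 of the 28 members and for 9.67% of all genes. The libraries did not overlap for 15 of the 28, against 22.8% of all genes, and 14 of the 15 were higher with ERB, as were 61% of all genes whose libraries did not overlap. DESeq2 called 1, COL9A3 (1.97), against 2.23% of all genes. COL8A2 came nearest in edgeR, with 17 reads against 2 (ratio 8.67, interval 2.06 to 77.4, adjusted p = 0.0513). COL13A1 had 27 and 48 reads against 0 and 3 (ratio 25.5, interval 8.40 to 126, adjusted p = 0.0989). Without the empty vector library II, 8 members were called, against 5.81% of all genes, and without library I 1 was, against 1.66%.

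**Figure D4:**
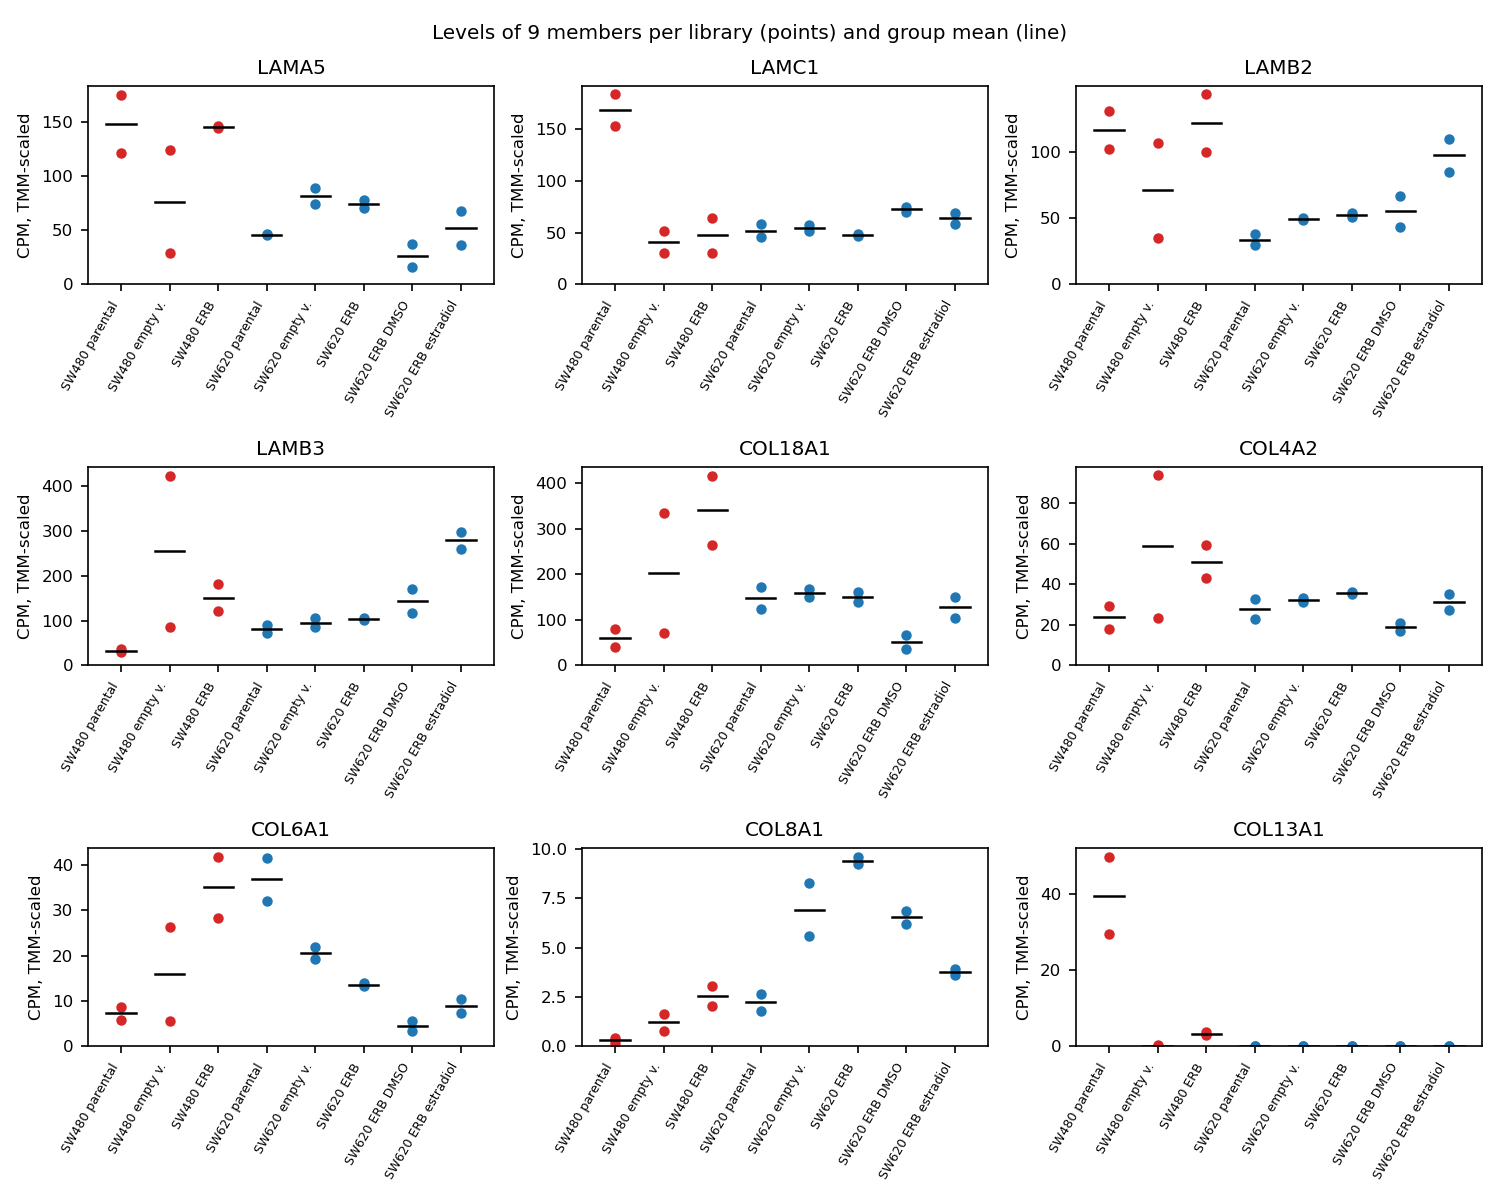
CPM, TMM-scaled and on linear axes from 0, of 9 members in each library (points; red for SW480, blue for SW620) with the group mean as a line. Parental SW480 has the highest mean of LAMC1 and COL13A1, and the points of the SW480 empty vector group lie far apart for LAMB3 (85.3 and 423), COL18A1 and COL4A2 (23.4 and 94.1).

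The related lists held calls in both directions in each transduced group, where 30.9% and 44.4% of all genes were called. Against parental cells, the empty vector libraries had 5 processing genes higher and 11 lower of 29, led by COLGALT2 (2.01), CRTAP (−2.36) and LOXL2 (−3.83). Partners were 2 higher and 3 lower of 11, led by SMOC2 (2.77), FREM2 (0.113 ± 0.159 against 3.80 ± 2.58 CPM) and FBLN1 (2.93). Receptors were 2 higher and 4 lower of 14, led by ITGA1 (−8.10), GPR56 (3.16) and ITGA3 (−4.11). Proteases and inhibitors were 1 higher and 9 lower of 16, led by CTSL (−3.85), TIMP3 (−3.61) and RECK (−3.34). The ERB libraries had 9 and 8, 3 and 1, 3 and 4, and 1 and 7 in the same order, led by COLGALT2 (1.59), P4HA2 (−1.82) and CRTAP (−1.45), by SMOC2 (2.60), FBLN1 (3.04) and FREM2 (−4.35), by ITGA1 (−6.01), GPR56 (2.40) and ITGA2 (−3.11), and by CTSL (−2.37), RECK (−2.91) and MMP7 (−2.86). Both comparisons share the parental libraries. ERB against empty vector libraries called LOXL2 (2.37), ITGA3 (2.75) and TIMP3 (2.51), all higher, and so was the smooth muscle marker ACTA2 (6.06 against 0.669 CPM, 3.26). Colon epithelial markers were higher in both transduced groups (6 and 7 of 10 tested), KRT18 reached 11471 CPM in empty vector library II, ACTA2 was lower and PDGFRB higher in both; their part in these results was not tested.

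In SW620, neither transduction step gave a call in the fit of all 16 libraries without offsets. With empty vector against parental, 0 of 28 members passed, against 0% of all genes, and 2 had an unadjusted p under 0.05, COL8A1 and COL27A1, against 1.58% of all genes. DESeq2 called 0, and so did edgeR on the 10 SW620 libraries alone, against 0.0847% of all genes. COL8A1 was 5.57 and 8.28 CPM with empty vector and 2.67 and 1.79 CPM in parental cells, a log2 difference of 1.63 (95% interval 0.68 to 2.58, adjusted p = 1). COL27A1, a fibrillar collagen, averaged 4.61 ± 0.942 against 2.22 ± 0.161 CPM. The libraries of these members did not overlap, as for 13 of the 28 members, against 24.5% of all genes. GC and length offsets in the edgeR fit of all 16 libraries called COL8A1 higher (1.54, adjusted p = 0.0377). Over all genes, 15 were then higher and 0 lower. In a fit of the 10 SW620 libraries with offsets for GC content and transcript length, added after seeing the data, COL8A1 (1.53) and COL7A1 (0.72) were called higher and COL6A1 (−0.92) lower, against 1.25% of all genes.

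With ERB against empty vector in SW620, 0 of 28 members passed, against 0.00573% of all genes, and 0 had an unadjusted p under 0.05, against 0.538% of all genes; DESeq2 called 0 as well. LAMB3 was 105 and 100 CPM with ERB against 105 and 85.8 with empty vector (log2 difference 0.10, interval −1.05 to 1.26), and COL18A1 162 and 139 against 169 and 150 (−0.08, interval −1.35 to 1.19). LAMC1 differed by −0.18 (interval −0.95 to 0.59). COL6A1 was 13.3 and 14 CPM with ERB against 21.9 and 19.3 (−0.59, interval −1.80 to 0.61), and its libraries did not overlap, as for 10 of the 28, against 22.5% of all genes. These intervals leave room for differences of 1 log2 unit in LAMB3 and COL18A1.

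DMSO for 24 h against untreated cells, both SW620 with ERB, shows what the vehicle and its handling went with. Of 28 members tested, 2 were lower, or 7.14%, near the share of all genes, of which 2.39% were higher and 3.76% lower, or 6.15% in all. COL2A1, the fibrillar collagen of cartilage, was 3.55 and 3.76 CPM untreated and 0.596 and 0.289 CPM in DMSO, a log2 change of −2.99 (SE 0.52, adjusted p = 0.0104). COL1A1 was 4.88 and 3.61 CPM untreated and 1.15 and 0.808 CPM in DMSO, a log2 change of −2.1 (adjusted p = 0.0336). The libraries of neither gene overlapped between groups, as for 19 of the 28, against 81.3% of all genes, and with GC and length offsets the changes were −2.43 and −1.58. Without any 1 of the 4 libraries neither was called, with adjusted p from 0.0771 to 0.257.

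The DMSO libraries also had the lowest GC shifts of the SW620 libraries, −1.51 and −2.07 against −0.11 and −0.14 in untreated cells. Over the 23 members read in all 4 libraries, the log2 change correlated with transcript GC content (Pearson r = −0.66, Spearman rho = −0.68), with medians of 0.31 over the 6 members under 55% GC and −1.23 over the 17 above. The log2 ratio of DMSO library II to I also correlated with GC content, with Pearson r = −0.78 over 24 members. COL9A3 was 8.37 and 9.40 CPM untreated and 3.32 and 0.981 in DMSO (−2.03, adjusted p = 0.0528), and COL18A1 162 and 139 against 67.7 and 36.9 (−1.52, adjusted p = 0.127). In a fit of the 10 SW620 libraries alone, 11 of 21 members were called, 2 higher (LAMB1 and LAMC1) and 9 lower, against 48.8% of all genes, and with offsets 11, 4 higher and 7 lower, against 47.8%. LAMB3 was among the 4 (0.95) and had not been called without the offsets. Of the related genes, FKBP14, a collagen chaperone, was higher (2.31), and P4HA2 (−1.35), SMOC2 (−1.47), FBLN1 (−2.23) and TIMP2 (−1.22) were lower. Of the marker lists, VIL1 of epithelium (597 to 276 CPM, −1.12) and LYZ of leukocytes (3.47 to 0.617 CPM, −2.50) were lower too; their part in the result was not tested.

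Estradiol at 10 nM against DMSO gave 0 calls of 28, against 0% of all genes, with 1 member, COL9A2, at an unadjusted p under 0.05, against 19.9% of all genes; DESeq2 called 0. LAMB3 was 260 and 297 CPM with estradiol and 171 and 117 CPM in DMSO, a log2 difference of 0.95 (interval −0.21 to 2.12, adjusted p = 0.253). COL18A1 was 104 and 151 against 67.7 and 36.9 CPM (1.28, interval −0.01 to 2.57, adjusted p = 0.238), LAMB2 84.6 and 110 against 66.5 and 43.5 CPM (0.82), and LAMA5 36 and 67.6 against 36.8 and 16 CPM (0.97). LAMB3, COL18A1 and LAMB2 did not overlap between the groups, and LAMA5 did; 18 of the 28 did not, against 80.7% of all genes.

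In the fit of the 10 SW620 libraries alone, 9 of 21 members were called with estradiol, 8 higher and COL8A1 lower, against 53% of all genes. With GC and length offsets 4 were called, COL18A1 higher by 0.38 and COL16A1 (−0.66), LAMB1 (−0.52) and COL27A1 (−1.38) lower, against 18.4% of all genes; LAMB3 was not among them. Over the 23 members read in all 4 libraries the log2 difference correlated with GC content (Pearson r = 0.83, Spearman rho = 0.77), with medians of −0.58 under 55% GC and 0.86 above. The GC shift was 0.12 and 0.59 with estradiol, and the DMSO group enters this comparison and the last.

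**Figure D5:**
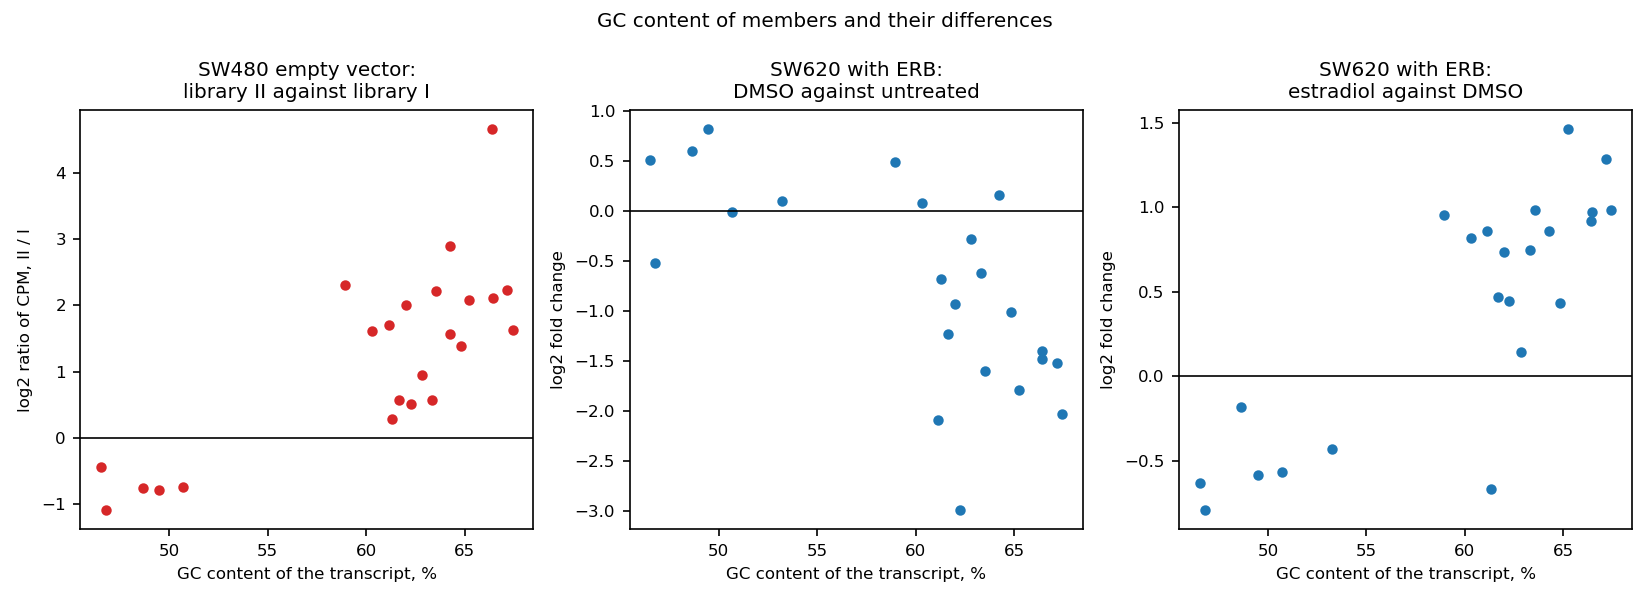
Each point is a member; the horizontal axis is the GC content of its transcript in percent and the vertical axis a log2 ratio: library II to I of the SW480 empty vector group (left), DMSO to untreated (middle) and estradiol to DMSO (right), both in SW620 with ERB. The correlations are 0.79, −0.66 and 0.83 over 23 members each, and members under 55% GC and above stand mostly on different sides of the zero line in the left and right panels.

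Libraries labelled SW480 and SW620 were also compared at matched transduction. With empty vector, edgeR called 0 members for SW480 against SW620, against 0.326% of all genes (0.0229% higher, 0.303% lower). In the genes high in parental SW480, these SW480 libraries sat at 2.20 and 2.1% of the parental level and the SW620 libraries at 1.41 to 2.02%. The 0 calls therefore do not show that the 2 lines are alike. Unadjusted p was under 0.05 for 6 members, against 10.5% of all genes, and DESeq2 called 1, COL8A1, against 1.49%. COL8A1 was 1.65 and 0.779 CPM in the SW480 libraries and 5.57 and 8.28 in the SW620 libraries (−2.47, adjusted p = 0.0512), and COL11A2 differed by −2.32 (adjusted p = 0.11). LAMC1 averaged 41.3 ± 14.9 against 54.1 ± 4.14 CPM, and the libraries overlapped; 8 of the 28 members did not, against 26.8% of all genes. Without SW480 empty vector I, 8 members were called, against 25.4% of all genes. For SW480 against SW620 with ERB, 3 members were called, all higher in SW480, against 1.71% of all genes higher, 0.292% lower and 2% in all. Libraries did not overlap for 24 of the 28, against 75.9% of all genes. COL13A1 was at least 41.5-fold higher (adjusted p = 0.0206), COL26A1 at least 20.5-fold (adjusted p = 0.0154) and COL5A1 at least 14.9-fold (adjusted p = 0.0416), each with 0 reads in SW620 with ERB and 75, 37 and 27 reads in the SW480 libraries. These 3 passed the read filter through SW480 libraries, so only a higher call was open to them. DESeq2 called 3 other members, LAMA3 (−1.75) and COL8A1 (−1.85) lower and COL9A3 (1.85) higher, against 4.78% of all genes. GC and length offsets kept all 3 and added LAMA3 (−1.60), COL16A1 (−1.03) and COL8A1 (−1.53) as lower, against 6.12%. The log2 difference correlated with GC content over the 23 members read in all 4 libraries (Pearson r = 0.74, Spearman rho = 0.66). Of the related genes LOXL2 (3.11), LEPREL2 (3.24) and ITGA3 (3.80) were higher, and SPARC was 2.38 ± 0.34 CPM against 0. ACTA2 of the smooth muscle markers was higher as well (6.06 against 0.243 CPM, 4.58); its part in the result was not tested. Leaving out any 1 of the 4 libraries brought the count to 0 or 1. COL13A1 and COL5A1 lost their call without any 1 of them, and COL26A1 kept it only without SW480 ERB II.

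The difference between empty vector and parental cells was itself compared between the lines. For COL8A2 it was lower in SW480 by 3.69 log2 units (edgeR interaction contrast, adjusted p = 0.0221), and 3 of 28 members were called, all lower, against 3.01% of all genes higher, 4.2% lower and 7.2% in all. The others were LAMC1 and COL6A3. COL8A2 had 7 and 17 reads in parental SW480 and 1 and 1 in the SW480 empty vector libraries. In SW620 it had 4 and 2 reads in parental cells and 7 and 9 with empty vector. COL6A3 had 66 and 66, 3 and 0, 2 and 3, and 2 and 3 in the same order. Both values thus rest on few reads. COL6A3 passed the read filter through parental SW480, so only a lower call was open to it here as well. COL8A2 lost its call with DESeq2 (adjusted p = 0.0583). DESeq2 called 4, among them COL9A3 lower (−2.43) and LAMB3 higher (2.77), against 15.9% of all genes. GC and length offsets called 12, of which COL1A1, COL6A1, COL18A1 and LAMB3 were higher, against 26.3%. Without SW480 empty vector I, 12 were called, against 44.9%. For the difference between ERB and empty vector, edgeR called 0 of 28, against 0.189% of all genes, all of them higher, with 4 members at an unadjusted p under 0.05, against 4.48% of all genes, and 0 called by DESeq2.

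Some of the better-read members were not called in any comparison. COL7A1, the anchoring fibril collagen that holds epithelium to stroma, averaged 7.80 to 20.6 CPM over the groups and COL16A1, a fibril-associated collagen, 5.50 to 12.5 CPM. LAMA3 averaged 4.75 to 16.2 CPM, COL4A2 18.8 to 58.7 CPM and LAMA5 26.4 to 148 CPM. This holds for the fit of all 16 libraries, and all 5 were called in at least 1 alternative: COL7A1, COL4A2 and LAMA5 in SW620 alone, COL16A1 and LAMA3 with GC and length offsets.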

How the data were processed

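Whole-number read counts per gene and FPKM per gene were deposited by the authors for 16 libraries, made with a stranded mRNA kit per the labels' protocols. The submitters' processing notes name TopHat2 2.0.4, SAMtools, Picard 1.29, HTSeq 0.6.1, Cufflinks 2.1.1 and GRCh37. Which tool made which file and the strand setting are not given in the sources used here. Groups came from the labels. From the counts, edgeR 4.0.16 (limma 3.58.1, R 4.3.3) was run with filterByExpr, TMM factors (0.585 to 1.36) and a quasi-likelihood F test over all 8 groups, adjusted by Benjamini-Hochberg over 17464 genes and called under 0.05. Levels are TMM-scaled CPM, and FPKM was used only between genes, with no pseudocount. Intervals of a log2 difference are 95% intervals from its SE and the degrees of freedom of the test, and counting intervals are exact binomial at 95% and cover counting error only. Alternatives were RLE factors, no filter, DESeq2 1.42.0, the replicate number as a block, GC and length offsets (a spline with 5 degrees of freedom, from GENCODE v29 transcripts), fits of single lines and each library left out, where the lone library is assumed to vary like the other groups. The test was run on simulated counts with 200 changed genes. These were drawn with a single fixed dispersion and no GC shift, so that run says nothing about the spread of these libraries. Named members were all those called or at 5 CPM or more in a group mean, and up to 3 called genes of each related list. One gene that meets the rule on symbols is not reported here, and counts of members leave it out. Members and lists were chosen with earlier results of these data known. Reference coordinates are GRCh38 and apply to the printed sequences only.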

Additional observations from a re-analysis of the deposited data

Results flagged for a closer look

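The difference between empty vector and parental cells itself differed between SW480 and SW620 for 3 of 28 members (edgeR interaction contrast), against 7.2% of all genes. The change in SW480 minus that in SW620 was −2.09 (log2) for LAMC1, −4.31 for COL6A3 and −3.69 for COL8A2. COL6A3 and COL8A2 had at most 3 and 9 reads in any empty vector library. COL6A3 passed the read filter through parental SW480, so only a lower call was open to it. These values rest on the libraries labelled SW480 with empty vector, in which other genes typical of parental SW480 were near the SW620 level. With each of the 8 libraries left out in turn, COL8A2 was called in 4 cases, and LAMC1 and COL6A3 in 2. Without SW480 empty vector I, 12 members were called (against 44.9% of all genes), without parental SW620 I 1 was, and without parental SW480 II, parental SW620 II or either SW620 empty vector library 0 were. The ERB effect was not called as different between the lines for any member by edgeR (0 of 28, 4 at an unadjusted p under 0.05, against 0.189% and 4.48% of all genes).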

How the results depend on the processing

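No called member reversed direction under any setting. Of 270 values of called members under other settings, 232 kept their call and 38 lost it; with 1 library left out, 117 of 196 kept it and 79 lost it. By the FPKM rule 18 members counted as detected in place of 38, and with a minimum of 100 reads 25 did. The counts of members called moved by more than 1.5 times as follows. Without the low-count filter they were 17 between the parental lines, 7 for DMSO, 1 for estradiol, 3 for ERB against empty vector in SW480, 2 and 8 between the lines with empty vector and with ERB, and 6 for the vector effect between lines. With DESeq2 they were 1 for ERB against empty vector in SW480 and 1 between the lines with empty vector. GC and length offsets gave 1 for empty vector in SW620, 2 for ERB against empty vector in SW480, 10 for DMSO (22.3% of all genes), 5 and 6 between the lines with empty vector and with ERB, and 12 for the vector effect between lines. The 12-library fit gave 19 between the parental lines. The 6 SW480 libraries alone gave 4 for empty vector and 0 for ERB against parental. The 10 SW620 libraries alone gave 11 for DMSO and 9 for estradiol, and with offsets, chosen after seeing the data, 3 for empty vector, 11 for DMSO and 4 for estradiol. The replicate numbers share only a name: over 28 pairs of groups the correlation of the II minus I differences ran from −0.74 to 0.66, median −0.05, above 0.1 in 9. With the replicate block, DMSO had 1, SW480 against SW620 with ERB 1 and the vector effect between lines 1, where LAMC1 (adjusted p = 0.0522) and COL6A3 (0.0732) were no longer called, nor was COL18A1 for empty vector in SW480 (0.0718). With 1 library left out, counts ranged from 6 to 11 between the parental lines, 10 to 18 for empty vector, 0 to 8 for ERB against empty vector and 2 to 15 for ERB against parental in SW480. They were 0 for DMSO, estradiol and both transduction steps in SW620, 0 to 8 and 0 to 1 between the lines with empty vector and with ERB, 0 to 12 for the vector effect and 0 to 1 for the ERB effect between lines. The cause of these moves was not tested, except that left-out libraries leave fewer samples. GC and length offsets moved the calls over all genes from 1194 higher and 1953 lower to 3661 and 2679 between the parental lines, from 2604 and 2795 to 4765 and 2924 for empty vector in SW480, from 417 and 657 to 1717 and 2186 for DMSO, from 0 and 0 to 15 and 0 for empty vector in SW620, and from 3400 and 4356 to 3747 and 3104 for ERB against parental and from 192 and 0 to 416 and 204 for ERB against empty vector in SW480. Between the lines they went from 4 and 53 to 300 and 279 with empty vector, from 299 and 51 to 634 and 434 with ERB, from 525 and 733 to 3030 and 1564 for the vector effect and from 33 and 0 to 98 and 11 for the ERB effect. They moved the median over all genes from −0.05 to 0.17 between the parental lines, from −0.11 to 0.19 for empty vector and −0.13 to 0.04 for ERB against parental in SW480, and from −0.10 to 0.22 for the vector effect between lines. Members with few reads limit precision: 3 reads over a library correspond to 0.128 to 0.342 CPM.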
